A study of Homo sapiens with 4 samples.

Results

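The 38 genes described here encode the machinery of mitosis: the cyclins and kinases that start it, the spindle and kinetochore proteins that move chromosomes, the checkpoint that delays anaphase, and the proteins that divide the cell. They were taken from a list of gene names, which was chosen with earlier results of these data known. Of the 38 names, 37 were found among the 30982 gene names of the array design, on 48 of its 41000 probes. NDC80, which encodes a subunit of the outer kinetochore, was absent under that name. Its older name KNTC2 was present, and its log2 ratios were -0.02 and 0.12 in FaDu and 0.20 and 0.06 in HSC3 after miR-489 and miR-504. It was not counted among the 37.

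Mature miR-489 or miR-504 was transfected into FaDu or HSC3 cells, and a control miRNA was transfected into the same line. FaDu is a squamous cell carcinoma line from the hypopharynx and HSC3 one from the tongue. Total RNA was taken at 72 h. Each of the 4 microarrays carried 1 control transfectant, labelled with Cy3, and 1 miRNA transfectant of the same line, labelled with Cy5. The groups were thus miR-489 and miR-504 in FaDu and miR-489 and miR-504 in HSC3, with 1 array each, and 4 values in a row follow that order. The dyes were never swapped, all 4 arrays were on 1 slide, and nothing in the labels says whether the 2 control transfectants of a line were separate cultures. A dye effect of a probe and the effect of a miRNA cannot be told apart on 1 array, but a dye effect that 2 arrays share drops out of the difference between miR-489 and miR-504.

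Most of these genes are transcribed late in the cell cycle, so that their RNA is abundant in cells in G2 and mitosis and scarce in resting cells. The DREAM and MuvB complexes control them: DREAM holds them down in resting cells, and MuvB with B-MYB and FOXM1 switches them on. A miRNA acts differently: the short Argonaute-bound RNA pairs through its seed with sites in target messages and lowers their level. In bulk RNA such as this, a smaller share of cells in G2 and mitosis and less RNA per cell cannot be told apart.

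The mature miRNAs are shown first because the seed, in capitals (bases 2 to 8), is what distinguishes the transfected molecules. The sequences are those of RefSeq. The labels do not state the arm of either miRNA, so every arm held in the table is given.
hsa-miR-489-3p: gUGACAUCacauauacggcagc
hsa-miR-504-5p: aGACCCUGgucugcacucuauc
hsa-miR-504-3p: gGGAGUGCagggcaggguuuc
No seed was shared between these 3 sequences.

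The promoters of mitotic genes are known for pairing CCAAT boxes, bound by NF-Y, with a downstream cell cycle genes homology region (CHR), bound by MuvB complexes. Both motifs were searched on both strands in the RefSeq windows of 250 bases before and 50 bases after the gene start (build GRCh38.p14), with CHR spelled TTTGAA or TTTAAA and the CCAAT box spelled CCAAT. A window was held for 31 of the 38 genes. CHR letters occurred in 25 of the 31 (80.6%), against 24.3% of 27305 windows of all genes, and CCAAT in 24 (77.4%), against 35.7%. Both occurred in 20 of the 31 (64.5%), against 9.49% of all windows. In the wider list of mitotic genes described at the end, 25 of 68 windows held both (36.8%). These are matches of letters, not binding sites. The 150 bases before the start are printed for ANLN, the gene that differed between the miRNAs, and for CCNB1, CCNB2 and PLK1, textbook members of the class, with matches in capitals.
ANLN, chr7:36389712-36389861, plus strand: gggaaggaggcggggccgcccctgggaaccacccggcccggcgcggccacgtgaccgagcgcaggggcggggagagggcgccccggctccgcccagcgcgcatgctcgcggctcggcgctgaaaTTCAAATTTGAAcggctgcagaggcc
CCNB1, chr5:69167000-69167149, plus strand: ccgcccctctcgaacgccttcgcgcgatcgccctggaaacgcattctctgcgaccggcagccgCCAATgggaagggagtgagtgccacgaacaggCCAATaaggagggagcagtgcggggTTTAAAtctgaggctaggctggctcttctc
CCNB2, chr15:59104996-59105145, plus strand: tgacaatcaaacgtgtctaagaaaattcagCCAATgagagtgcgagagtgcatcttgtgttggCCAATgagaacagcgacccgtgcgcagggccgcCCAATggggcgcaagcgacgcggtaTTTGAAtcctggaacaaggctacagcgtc
PLK1, chr16:23678739-23678888, plus strand: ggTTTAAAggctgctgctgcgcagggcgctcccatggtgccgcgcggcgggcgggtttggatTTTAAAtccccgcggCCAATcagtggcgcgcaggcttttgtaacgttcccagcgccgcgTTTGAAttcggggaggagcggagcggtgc
ANLN had 2 CHR matches side by side, 26 and 20 bases before the start, and no CCAAT in its window. CCNB1 and CCNB2 had the arrangement of CCAAT followed by CHR, with a CHR match 30 bases before the start in CCNB1 and 29 in CCNB2 and PLK1.

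Cy3 signals were well above background for 58.2% to 59.2% of spots and Cy5 signals for 61.2% to 62.6%. The spots of probes printed at least 5 times had a pooled SD of 0.0932 to 0.108 on the log2 scale, which covers error within an array only. All 7 squamous markers present in the design were well above background in the control channel of all 4 arrays (KRT5, KRT14, KRT17, TP63, PERP, DSG3 and CDH1). Of the 3 fibroblast markers, COL3A1 and PDGFRB were not well above background in any control channel, and COL1A1 was so in HSC3. All 37 mitotic genes were well above background in both channels of all 4 arrays, with control signals from 190.0 to 33986 intensity units.

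The study transfected these miRNAs while following the growth of squamous carcinoma lines, and the first comparison asks whether either miRNA lowered the mitotic genes. The log2 ratio of Cy5 over Cy3, centred on the median probe of its array, is the measure of change throughout. The median ratio of the 37 genes was above 0 on every array: 0.24 and 0.22 in FaDu and 0.42 and 0.12 in HSC3, after miR-489 and miR-504. The corresponding medians of all measured genes were -0.03, -0.01, -0.03 and -0.02. In the same order 27, 24, 31 and 24 of the 37 genes lay above 0, against 47.8%, 48.9%, 47.8% and 48.7% of all genes.

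Not 1 of the 37 genes was 2-fold lower on any array. The count was 0 of 37 for FaDu miR-489, where 8.84% of all genes were at least 2-fold lower, 0 for FaDu miR-504 (6.0% of all genes), 0 for HSC3 miR-489 (8.19%) and 0 for HSC3 miR-504 (5.12%). At least 2-fold higher, by the brightest probe of each gene, was 1 gene, TTK after miR-489 in HSC3, where 2.71% of all genes were. The count of higher genes was 0 on the other arrays, with 2.85% of all genes for FaDu miR-489, 2.35% for FaDu miR-504 and 1.97% for HSC3 miR-504. With 1 array per condition these counts have no test.

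**Figure D1:**
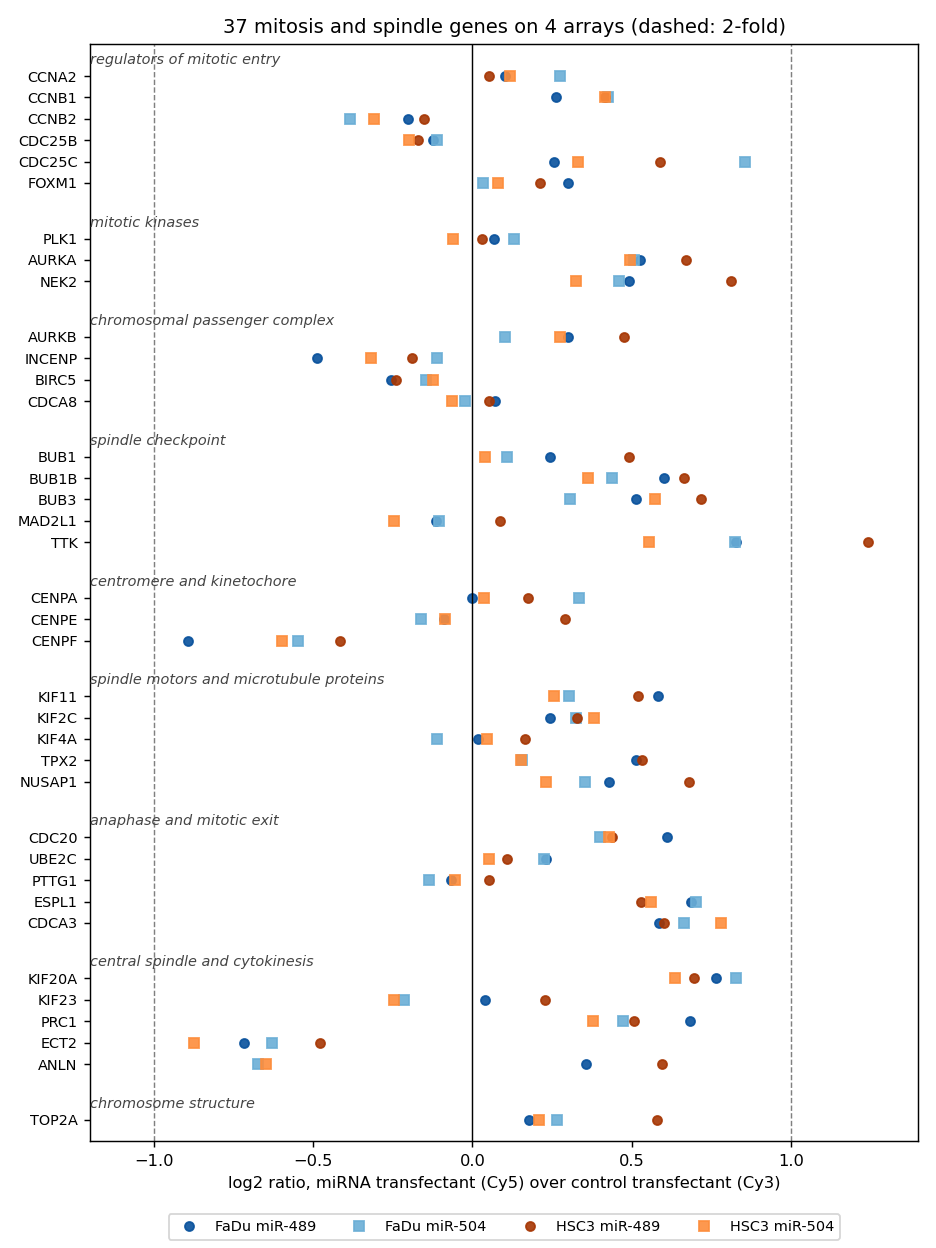
The log2 ratio of miRNA transfectant over control transfectant (horizontal axis) is plotted for each of the 37 genes, grouped by role, with 1 point per array and dashed lines at 2-fold. All points but 1 lie between the dashed lines, TTK after miR-489 in HSC3 passes 2-fold at 1.24, and the ANLN points of the 2 miRNAs lie on opposite sides of 0.

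The size of this shift depended on how the dyes were normalised. The arrays showed a dependence of the ratio on brightness: among all genes measured on the 4 arrays, the dimmest 25% by control signal had medians of -0.24 to -0.14 and the brightest 25% 0.06 to 0.12. Of the 37 mitotic genes, 23 were in the brightest 25%, 11 in the next, 3 in the one below and 0 in the dimmest. With a loess normalisation, which removes such a trend, the medians of the 37 genes were 0.00447, 0.03, 0.19 and -0.01. The scanner software's own normalised ratio gave 0.08, 0.06, 0.23 and 0.00966. Under loess 19, 21, 25 and 17 of 37 genes lay above 0, so that the highest of the 4 counts was that of miR-489 in HSC3.

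**Figure D2:**
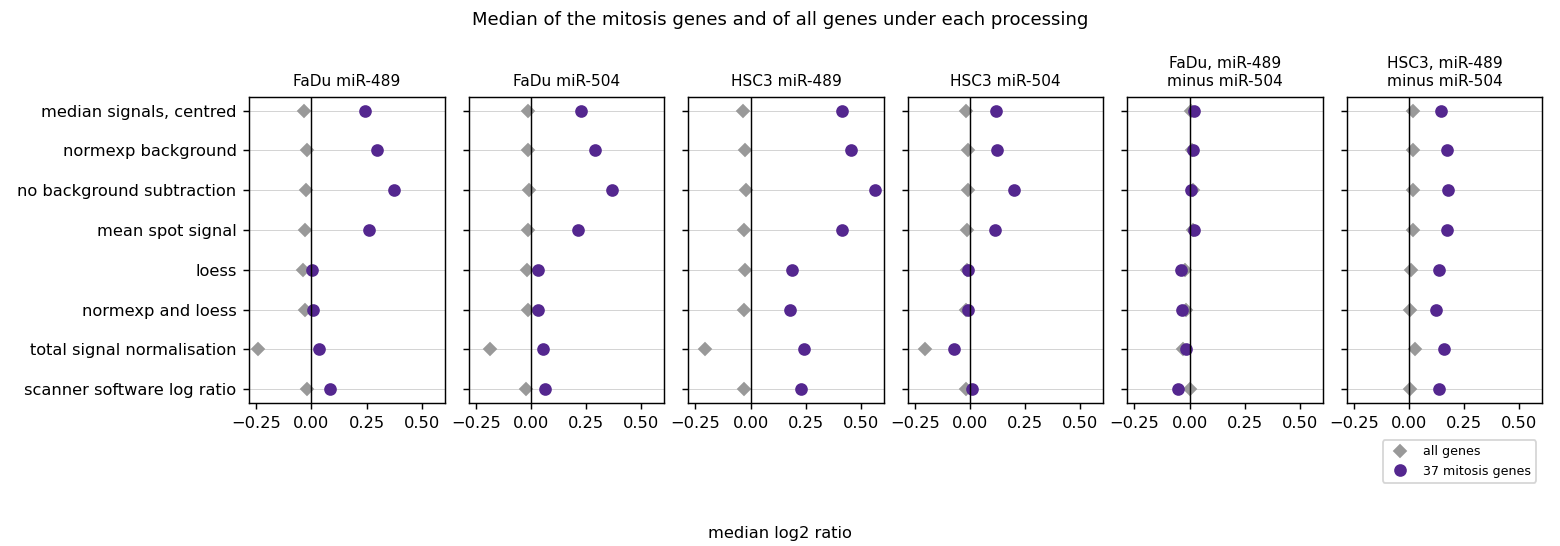
Each panel gives, for 1 array or 1 difference, the median log2 ratio of the 37 genes (circles) and of all genes (diamonds) under 8 ways of processing. The circles of the single arrays approach 0 under both loess settings, total signal normalisation and the scanner software's ratio, while those of HSC3 miR-489 minus miR-504 keep between 0.12 and 0.18.

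Taking the lines as replicates of a miRNA (2 arrays each), the moderated test of limma asked whether a gene's ratio differed from 0, with p-values adjusted over 20914 probes and called at 0.05. After miR-489 20 of the 37 genes were called higher and 4 lower, where 30.5% of all probes were called higher and 26.6% lower. After miR-504 14 were called higher and 4 lower, where 26.2% of probes were called higher and 23.4% lower. These calls share the fixed dye orientation, and they moved with the normalisation: under loess there were 14 higher and 7 lower for miR-489, and 9 higher and 9 lower for miR-504. Under loess CCNB1, FOXM1, AURKB, BUB1, KIF2C and TOP2A were no longer called higher after miR-489, nor CCNB1, NEK2, BUB3, KIF11 and KIF2C after miR-504. They also moved with single arrays. Leaving out the miR-504 array of FaDu left 2 genes called higher and 1 lower after miR-504, and leaving out that of HSC3 left 4 and 1. After miR-489, 13 genes were called higher without the HSC3 miR-489 array, and the genes called lower numbered 1 without the FaDu miR-489 array and 2 without either miR-504 array. The calls by role are given next, on the median-centred values, and "rose" and "fell" refer to them. Lower calls that loess added are given with the roles.

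Among the regulators of mitotic entry, CCNB1, the cyclin B1 subunit of the mitotic kinase CDK1, rose after both miRNAs. Its ratios were 0.26 and 0.43 in FaDu and 0.42 and 0.42 in HSC3, after miR-489 and miR-504 in each line, the order used below. CCNB2, cyclin B2, fell after miR-504 (adjusted p = 0.0171 in limma) and had ratios of -0.20, -0.39, -0.15 and -0.31. The 2 B-type cyclins thus lay on opposite sides of 0 on all 4 arrays, except that under loess CCNB1 for FaDu miR-489 was at -0.02, on the side of CCNB2 (-0.46). FOXM1, the transcription factor that drives many of these genes, rose after miR-489 (ratios 0.30 and 0.21) and had ratios of 0.03 and 0.08 after miR-504. CDC25C, a phosphatase that activates CDK1, rose after miR-504 (adjusted p = 0.0278), but its 4 ratios of 0.26, 0.86, 0.59 and 0.33 placed the larger value with a different miRNA in each line. CCNA2, the cyclin of S phase and G2, and CDC25B, another CDK1-activating phosphatase, ranged from 0.05 to 0.27 and from -0.20 to -0.11 and passed neither test. Under loess 2 of the 6 regulators were called lower after miR-489 and 2 after miR-504. CCNB2 then had ratios of -0.46, -0.54, -0.34 and -0.50, and CDC25B -0.28, -0.22, -0.34 and -0.35.

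Of the mitotic kinases, AURKA, which matures centrosomes and builds the spindle, rose after both miRNAs, with ratios of 0.53, 0.51, 0.67 and 0.49. NEK2, which separates centrosomes, also rose after both, with 0.49, 0.46, 0.81 and 0.32. A dimmer probe of NEK2 read 0.54, 0.78, 1.11 and 0.44, past 2-fold for HSC3 miR-489. PLK1, which acts from mitotic entry to cytokinesis, had ratios of -0.06 to 0.13 by its brightest probe and passed neither test. Its other probe read 0.85, 0.78, 0.73 and 0.71, so these probes of 1 gene disagreed on every array by more than the spread of replicate spots.

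The chromosomal passenger complex corrects faulty attachments of chromosomes and later helps cytokinesis. Its kinase AURKB rose after miR-489 (ratios 0.30 and 0.47), whereas its scaffold INCENP fell after miR-489 (-0.49 and -0.19). BIRC5, known as survivin, also fell after miR-489, by 0.26 in FaDu and 0.24 in HSC3, with a spot SD of 0.04 over 8 spots and 0.02 over 10. CDCA8, borealin, stayed between -0.06 and 0.07. After miR-504 limma called 0 of the 4 members, and 0 passed at an unadjusted p of 0.05. This depended on the normalisation. After miR-504, 1 of the 4 was called lower with loess, 1 with the scanner software's ratio and 3 with normexp and loess. The miR-489 calls of INCENP (adjusted p = 0.0453 in limma) and BIRC5 (0.0379) lay close to the threshold. BIRC5 was not called with the cell line as a block (adjusted p = 0.0550) and INCENP was (0.0485). Neither was called with the FaDu miR-489 array or either miR-504 array left out, and BIRC5 was also lost without the HSC3 miR-489 array. The call of AURKB was lost without the HSC3 miR-489 array and under loess (adjusted p = 0.0595), whereas INCENP and BIRC5 were called lower under loess.

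The spindle checkpoint holds anaphase back until all kinetochores are attached. TTK (MPS1), the kinase at its head, rose after both miRNAs, with ratios of 0.83 and 0.83 in FaDu and 1.24 and 0.55 in HSC3. The value of 1.24 rested on a control signal of 416.5 and a miR-489 signal of 1476.5 intensity units, on 1 spot of 1 probe. BUB1B (BUBR1), which binds and inhibits CDC20, rose after both miRNAs, with 0.60, 0.44, 0.66 and 0.36. BUB1, a checkpoint kinase, rose after miR-489 with 0.24 and 0.49 and had 0.11 and 0.04 after miR-504. BUB3, their partner at kinetochores, rose after both by its brightest probe (0.51, 0.31, 0.72 and 0.57), and a dimmer probe of it read between -0.57 and -0.09. MAD2L1 (MAD2), the inhibitor that is converted at unattached kinetochores, ranged from -0.25 to 0.09 and passed neither test. In all, 4 of the 5 checkpoint genes were called higher after miR-489 and 3 after miR-504, where 30.5% and 26.2% of all probes were. Under loess these counts were 3 and 2, and MAD2L1 was then called lower after miR-504.

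At the centromere and kinetochore, CENPA, the histone variant that marks centromeres, ranged from -0.00146 to 0.34 and was not called. CENPE, a motor that aligns chromosomes, was printed 10 times per array. Its ratios were -0.09, -0.16, 0.29 and -0.09, and the value of HSC3 after miR-489 was the highest. The spot SDs of 0.04 to 0.07 cover error within an array only, so the difference between arrays was not tested. CENPF, a large kinetochore protein, fell after both miRNAs by its brightest probe, with -0.89, -0.55, -0.42 and -0.60. Its other probe read -0.11, 0.02, 0.24 and 0.20, and the fall of CENPF is therefore uncertain. Under loess the FaDu miR-489 value was -1.15, past 2-fold, as it also was under total signal normalisation (-1.10) and by the scanner software's ratio (-1.08).

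Of the 5 spindle motors and microtubule proteins, 4 rose after miR-489, where 30.5% of all probes were called higher, and 2 after miR-504 (26.2%). Under loess 3 were called higher after miR-489, and KIF2C and KIF4A lay below 0 for FaDu miR-489 (-0.04 and -0.13). KIF11 (Eg5), the motor that separates the poles, had ratios of 0.58, 0.30, 0.52 and 0.26 and rose after both miRNAs. Its other probe read 0.67, 0.75, 0.93 and 0.55. KIF2C, a microtubule depolymerase at centromeres, rose after both with 0.24, 0.33, 0.33 and 0.38. TPX2, which activates AURKA on the spindle, had 0.51, 0.16, 0.53 and 0.15 and rose after miR-489. NUSAP1, which bundles spindle microtubules, rose after miR-489 with 0.43 and 0.68 and had 0.35 and 0.23 after miR-504. KIF4A, a motor of the chromosome arms and midzone, ranged from -0.11 to 0.16 and was not called.

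In anaphase and mitotic exit, CDC20, the activator of the anaphase-promoting complex, rose after both miRNAs with 0.61, 0.40, 0.44 and 0.43. ESPL1, the protease separase that cleaves cohesin, rose with 0.69, 0.70, 0.53 and 0.56, and CDCA3, a trigger of mitotic entry, with 0.59, 0.66, 0.60 and 0.78. By their brightest probes and with median centring, these 3 genes lay at 0.40 or above on all 4 arrays. Under loess CDC20 had 0.37, 0.24, 0.25 and 0.25, and ESPL1 had 0.49, 0.59, 0.37 and 0.42. The other CDCA3 probe read 0.66, 0.39, 0.65 and 0.49. UBE2C, the ubiquitin-conjugating enzyme of that complex, ranged from 0.05 to 0.23, and PTTG1, securin, the inhibitor of separase, from -0.14 to 0.05. Neither was called. Under loess 1 of the 5 genes of this group was called lower after miR-489 and 1 after miR-504. PTTG1 then had ratios of -0.37, -0.35, -0.24 and -0.34.

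In the central spindle and cytokinesis group, KIF20A (MKLP2), a motor that carries the passenger complex to the midzone, was printed 10 times per array. Its ratios were 0.77, 0.83, 0.70 and 0.64, with spot SDs of 0.05 to 0.07, and it rose after both miRNAs. PRC1, the bundler of the midzone, also rose after both with 0.68, 0.47, 0.51 and 0.38. ECT2, the exchange factor that activates RhoA at the cleavage furrow, fell after both by its brightest probe (-0.72, -0.63, -0.48 and -0.87) and reached -1.07 in HSC3 after miR-504 under loess. Another ECT2 probe well above background read 0.18, 0.11, 0.71 and 0.06, so the direction of ECT2 depends on the probe. KIF23 (MKLP1), of the centralspindlin complex, had 0.04, -0.21, 0.23 and -0.24 and passed neither test. Under loess 3 of the 5 cytokinesis genes were called lower after miR-504, and KIF23 then had -0.33 in FaDu and -0.39 in HSC3 after that miRNA. TOP2A, the topoisomerase that untangles sister chromatids and the sole member grouped under chromosome structure, rose after miR-489 with 0.18 and 0.58 and had 0.26 and 0.21 after miR-504.

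The comparison of miR-489 with miR-504 within a line removes what the arrays share. ANLN, which encodes anillin, the scaffold that links actin, myosin and septins in the contractile ring, was the 1 gene of the 37 called different. In FaDu its control signals were 958.0 and 808.0 on the miR-489 and miR-504 arrays, and the miRNA transfectants gave 1833.5 and 795.5. In HSC3 the control signals were 1332.5 and 2112, and the miRNA transfectants gave 3022 and 1836.5. The ratios were 0.36 and -0.67 in FaDu and 0.60 and -0.65 in HSC3, so ANLN lay above 0 after miR-489 and below 0 after miR-504 in both lines. The difference was 1.03 in FaDu, or 2.04-fold, and 1.24 in HSC3, or 2.37-fold.

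Over both lines limma estimated the ANLN difference at 1.14 (SE 0.13, adjusted p = 0.0395), and at an adjusted p of 0.0250 with the cell line as a block. ANLN was the 1 of 37 genes called higher after miR-489 than after miR-504, and 0 were called lower, where 0.316% of all probes were called higher and 0.784% lower (0.937% and 1.83% with the block). An unadjusted p under 0.05 was met by 3 of the 37: ANLN, TPX2 (difference 0.36 in FaDu and 0.38 in HSC3) and KIF23 (0.25 and 0.47). These are 8.11% of the 37, against 18.5% of all probes. Against 0, ANLN was called higher after miR-489 and lower after miR-504. The ANLN call was lost when any 1 of the 4 arrays was left out, settings under which 0 of the 20914 probes were called, and when dim probes were kept in the test. ANLN was read by 1 spot of 1 probe per array.

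As a 2-fold count in single arrays, ANLN alone was at least 2-fold higher after miR-489 than after miR-504, in FaDu (1 of 37, with 1.02% of all genes) and in HSC3 (1 of 37, with 0.648%). At least 2-fold lower was 0 of 37 in FaDu, with 2.54% of all genes, and 0 of 37 in HSC3, with 1.81%. The FaDu difference of ANLN was close to 2-fold and fell under it with normexp background correction, without background subtraction, with loess and with total signal normalisation. Its lowest value was 0.92, under normexp with loess. TTK, the gene past 2-fold on an array, had a difference of 0.00105 in FaDu and 0.69 in HSC3 and was not called (adjusted p = 0.397 in limma).

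**Figure D3:**
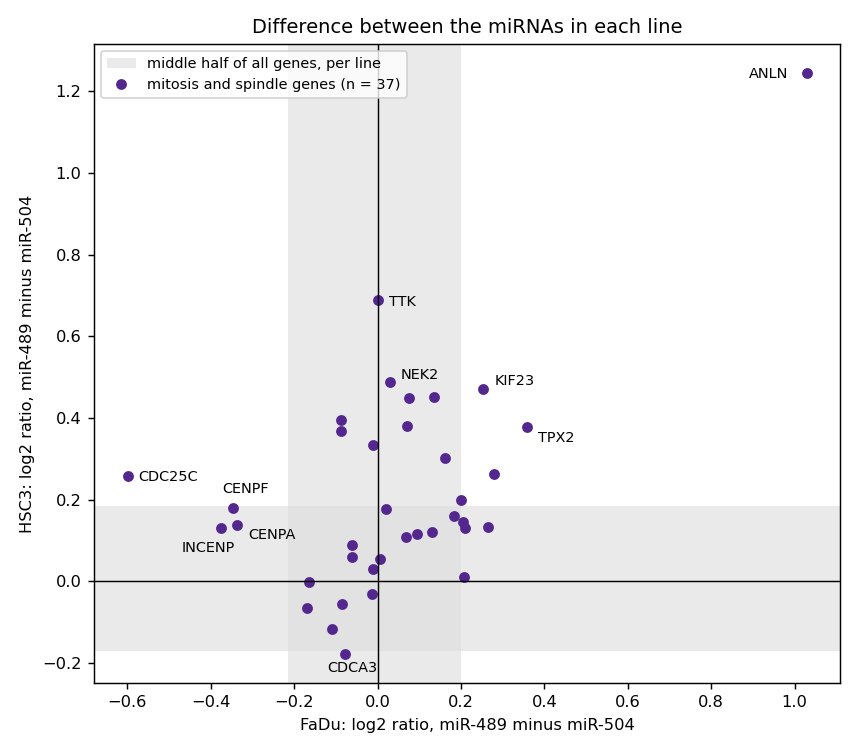
Each of the 37 genes is placed by its log2 ratio after miR-489 minus that after miR-504 in FaDu (horizontal axis) and in HSC3 (vertical axis), and the grey bands hold the middle 50% of all genes in each line. ANLN stands alone at the upper right (1.03 and 1.24), and 31 of the 37 points lie above 0 for HSC3 against 21 right of 0 for FaDu.

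The median difference between the miRNAs was 0.02 in FaDu, with 21 of 37 genes above 0, and 0.14 in HSC3, with 31 of 37 above 0. All measured genes had medians of 0.00864 and 0.02, with 51.3% and 52.5% above 0. In HSC3 the median stayed between 0.12 and 0.18 under every processing in the plot of medians by setting, and 29 to 32 of the 37 genes stayed above 0. The 5 checkpoint genes (median difference 0.33), the 5 cytokinesis genes (0.39), the 3 kinetochore genes (0.18) and the 3 kinases (0.18) were all above 0 in HSC3. So were 3 of 4 passenger complex genes, 4 of 5 spindle motor genes, 4 of 6 entry regulators and 3 of 5 anaphase genes. In FaDu 4 of 5 checkpoint genes, 3 of 5 cytokinesis genes, 1 of 3 kinetochore genes (median -0.34) and 2 of 3 kinases were above 0. Across the 37 genes the FaDu and HSC3 differences correlated with r = 0.55, as they did over all 15724 genes measured on the 4 arrays (r = 0.55). Without ANLN the value over 36 genes was 0.22. Genes of 1 array are not independent, and each difference shares its arrays.

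The signal of each channel was also compared between the 2 arrays of a line. An effect of a spot or array that both channels share stays in such a difference. It therefore cannot place the HSC3 shift in 1 channel. In HSC3 the centred control (Cy3) signal was lower on the miR-489 array than on the miR-504 array for 28 of the 37 genes. The median was -0.16, where 41.4% of all genes were lower and their median was 0.06. The miRNA (Cy5) signal had a median difference of 0.03, close to that of all genes (0.04), with 21 of 37 above 0. In FaDu the median differences were 0.08 in Cy3 and 0.10 in Cy5, against 0.02 and 0.04 over all genes. Whether the 2 HSC3 control transfectants were 1 culture or 2 is not stated, and the part of the control samples in the HSC3 difference was not tested.

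ANLN differed in the miRNA channel in both lines, by 1.26 in FaDu and 0.79 in HSC3. Its control channel differed by 0.23 in FaDu and by -0.41 in HSC3, and the same limit on single channels holds for these values. For TTK in HSC3 the miRNA channel differed by 0.34 and the control channel by -0.30. CENPA in HSC3 had a control signal that differed by -0.67, where its miRNA signal differed by -0.58.

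**Figure D4:**
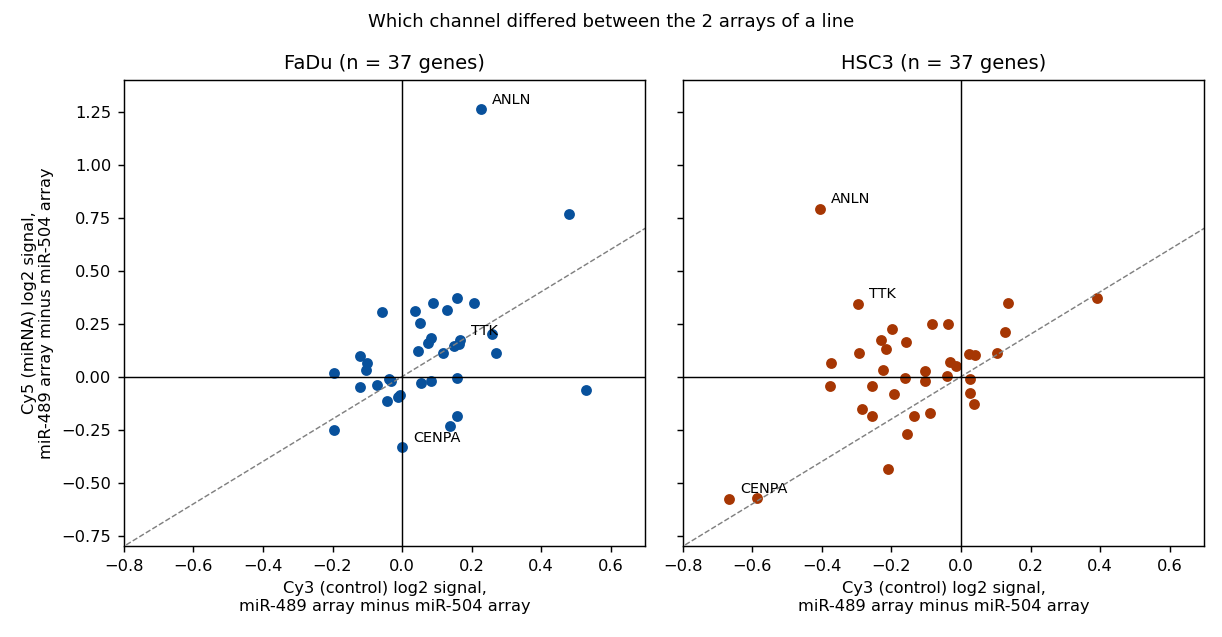
For each of the 37 genes the difference between the miR-489 and miR-504 arrays of a line is split into the control channel (Cy3, horizontal axis) and the miRNA channel (Cy5, vertical axis), both centred log2 signals, and points on the dashed line have no difference in ratio. In HSC3 28 points lie left of 0, while in both panels ANLN stands above all other genes on the vertical axis.

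The control transfectants, which received a control miRNA, were also compared between the lines. The centred control level was higher in FaDu than in HSC3 by a median of 0.24 on the log2 scale, against 0.08 for all 15724 genes. This median was 0.36 from the miR-489 arrays alone and 0.13 from the miR-504 arrays alone. Both FaDu arrays lay above both HSC3 arrays for 20 of the 37 genes, as for 43.4% of all genes, and below them for 9, as for 33.4% of all genes. The arrays of the lines overlapped for the remaining 8. No test was made, since the 2 control samples of a line are not known to be separate.

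FaDu had at least 2-fold more for 2 genes, FOXM1 and BIRC5, where 11.6% of all genes passed 2-fold. These counts depended on the arrays used. From the miR-489 arrays alone FaDu passed for 3 genes, PLK1 added (11.5% of all genes), and HSC3 for 1, CDC25B (10.7%). From the miR-504 arrays alone FaDu passed for 1, FOXM1 (12.8%), and HSC3 for 3, ANLN added (10.5%). FOXM1 was 2.25-fold higher, with levels of 4.0 and 3.97 above the array median in FaDu and 2.83 and 2.80 in HSC3. BIRC5 was 2.0-fold higher, with 6.51 and 6.42 against 5.48 and 5.44, and fell below 2-fold when the control channels were quantile normalised. HSC3 had at least 2-fold more for CDC25B (2.41-fold, with 3.49 and 3.1 against 2.11 and 1.96) and CENPA (2.16-fold, with 1.58 and 2.25 against 0.81 and 0.81), where 10.2% of all genes passed. The arrays of 1 line agreed within 0.04 for FOXM1 and 0.08 for BIRC5, whereas the HSC3 arrays differed by 0.67 for CENPA.

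Close to 2-fold were also PRC1 (1.95-fold higher in FaDu), PLK1 (1.90-fold), INCENP (1.84-fold) and ECT2 (1.75-fold). HSC3 had more NEK2 (1.76-fold), ANLN (1.64-fold), AURKB (1.56-fold) and CDCA8 (1.48-fold). Of the 4 passenger complex genes, INCENP and BIRC5 were higher in FaDu and AURKB and CDCA8 higher in HSC3. In each case both arrays of a line lay on the same side. That was also so for most genes, with 43.4% of all genes higher in FaDu and 33.4% higher in HSC3 without overlap. AURKA, BUB3 and UBE2C differed by 0.06 or less, within the spread of the arrays of a line.

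**Figure D5:**
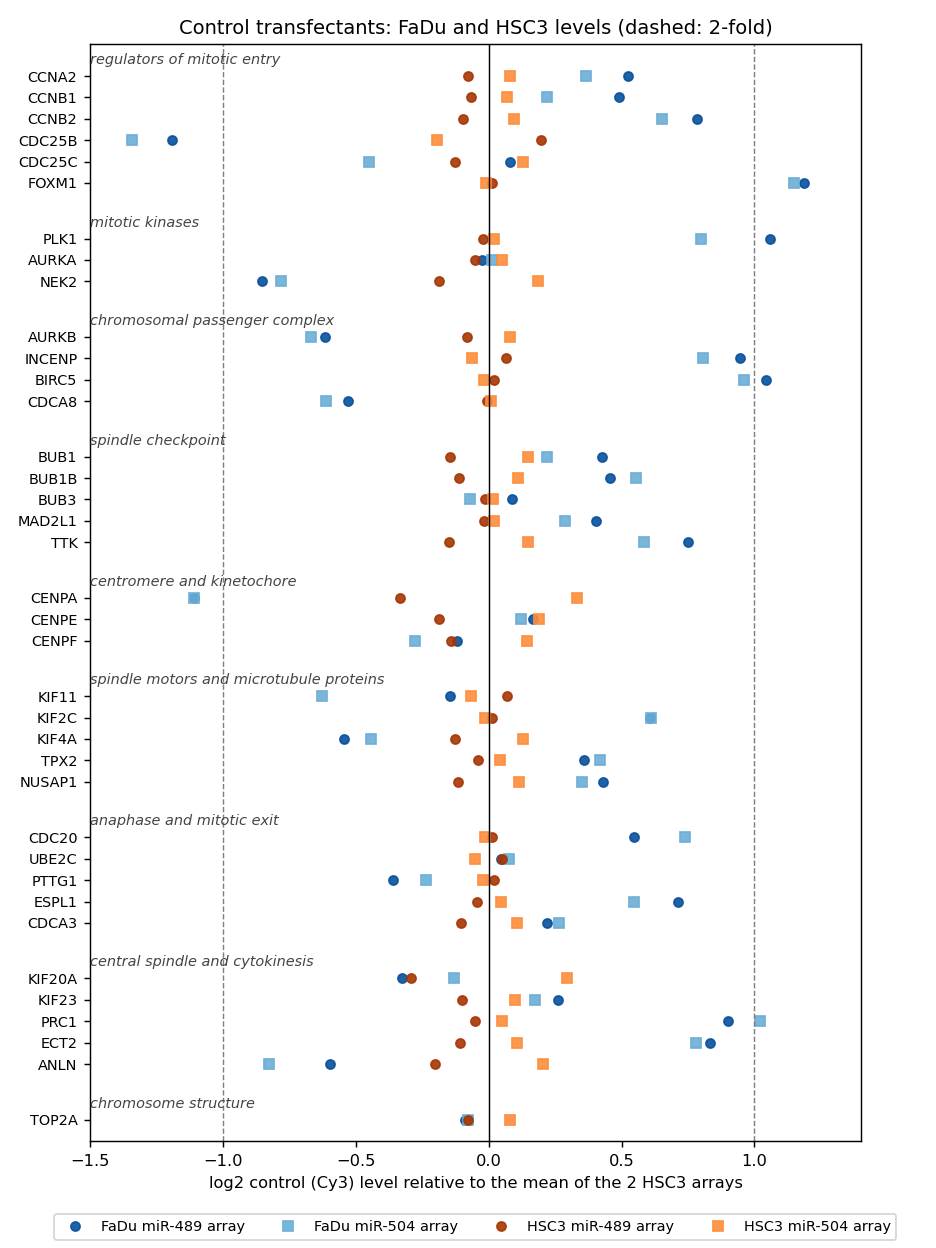
The control (Cy3) level of each gene on each array is drawn relative to the mean of the 2 HSC3 arrays (log2, horizontal axis), with dashed lines at 2-fold. FOXM1 (2.25-fold) stands right of the upper dashed line on both FaDu arrays, CDC25B and CENPA stand left of the lower one, and the 2 arrays of a line sit closer together in FaDu than in HSC3 for CENPA.

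Other genes of the same processes were taken from a wider list of 82 mitotic genes, of which 75 were in the array design and 74 were measured. Their medians were lower than those of the 37 genes: 0.07, -0.00137, 0.17 and 0.00348 on the 4 arrays. After miR-489, 26 of the 74 were called higher and 19 lower against 0, and after miR-504 26 and 21. As shares these were 35.1% higher and 25.7% lower after miR-489 (30.5% and 26.6% of all probes), and 35.1% and 28.4% after miR-504 (26.2% and 23.4% of all probes). Between the miRNAs limma called 0, and 16 (21.6%) had an unadjusted p under 0.05, where 18.5% of all probes had. In HSC3 55 of the 74 were higher after miR-489 than after miR-504 (median 0.14), and in FaDu 40 of 74 (median 0.02), against 52.5% and 51.3% of all genes. By role, the HSC3 count was 19 of 20 for spindle genes (median 0.26), 7 of 8 for chromosome structure (0.26), 12 of 17 for anaphase and mitotic exit (0.07), 13 of 22 for centromere and kinetochore (0.04) and 4 of 7 for mitotic entry (0.07).

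Some genes of the wider list passed 2-fold. At least 2-fold lower were 3 of 74 for FaDu miR-489, where 8.84% of all genes were. The count of lower genes was 0 for FaDu miR-504 (6.0% of all genes), HSC3 miR-489 (8.19%) and HSC3 miR-504 (5.12%). At least 2-fold higher were 1 of 74 for FaDu miR-489 (2.85% of all genes) and 2 for FaDu miR-504 (2.35%). In HSC3 the higher genes numbered 3 for miR-489 (2.71%) and 2 for miR-504 (1.97%). FAM83D, which places kinesin KIF22 and casein kinase 1 on the spindle, rose after both miRNAs with ratios of 1.82, 1.43, 1.72 and 1.13. KIF20B had 0.90, 1.08, 1.46 and 0.91, and MAD1L1, the partner of MAD2, had 0.90, 0.80, 1.05 and 1.06, and both rose after both miRNAs. In the other direction, CDK1 itself, the kinase that B-type cyclins activate, fell after both, with -1.0, -0.42, -0.67 and -0.36. NCAPG, a condensin subunit, fell with -1.19, -0.69, -0.81 and -0.56, and CEP55, which recruits the abscission machinery to the midbody, with -1.02, -1.0, -0.83 and -0.97. CDC14A was not well above background in either channel of any array, and no fold is given.

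The list of 22 transcriptional regulators of mitotic genes also held cell cycle inhibitors, CDKN1A and CDKN1B among them, and the counts include these. Of the 22 genes, 19 were in the design. At least 2-fold lower were 4 of 19, 2 of 19, 2 of 17 and 1 of 17 on the 4 arrays (8.84%, 6.0%, 8.19% and 5.12% of all genes). At least 2-fold higher was 1 of 19 for FaDu miR-489 (2.85% of all genes). On the other arrays 0 of 18 were (2.35%, 2.71% and 1.97%). RBBP4, a histone-binding subunit shared by MuvB and several chromatin complexes, was the 1 of 17 tested that was called between the miRNAs. Of all probes, 0.784% were called lower and 0.316% higher. Its ratios were -1.67 after miR-489 and -0.22 after miR-504 in FaDu, and -1.80 and -0.32 in HSC3. The difference was -1.45 in FaDu and -1.47 in HSC3 (limma adjusted p = 0.0314, and 0.0185 with the cell line as a block). The call was lost when any 1 array was left out, as all others were, and when dim probes were kept in the test.

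Among inhibitors of the cell cycle, CDKN1A, which encodes p21, rose after both miRNAs, with ratios of 1.13, 0.61, 0.83 and 0.81. CDKN1B, which encodes p27, fell after miR-489, with -1.19 in FaDu and -1.07 in HSC3, and had -0.00243 and -0.69 after miR-504. LIN9, another MuvB subunit, ranged from -1.17 to -0.94, and E2F3, an activating E2F, from -1.15 to -0.91. MYBL2, which encodes B-MYB, stayed between 0.04 and 0.21.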

How the data were processed

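Total RNA of 4 transfectants was compared with that of control transfectants on 4 two-colour Agilent 44K arrays, 1 per condition. The authors deposited scanner output made, per the submitters' processing notes, with Feature Extraction 9.5.3.1, with unnormalised median and mean intensities per spot, local background values and marks (0 or 1) for outliers, saturation and signal well above background. The deposited log10 ratio of Cy5 over Cy3 was the software's own dye-normalised value, and the series' table of values equalled it (largest difference 0). The paper's methods name another scanner and software, log2 ratios of background-subtracted median intensities and a global normalisation, and the values here follow those last steps.

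Log2 ratios of background-subtracted median intensity were centred on the median of probes well above background in both channels, after 118 to 137 outlier spots per array were left out (saturated spots: 0). A dim signal was set to the lowest signal well above background where it was lower, replicate spots were averaged, and the probe of highest mean log2 Cy3 stood for a gene. Lower needed Cy3, and higher needed Cy5, well above background. Calls used 2-fold on 1 array, or limma 3.58.1 (R 4.3.3) with lines as replicates (2 residual degrees of freedom), on the 20914 probes with Cy3 well above background on all arrays, with Benjamini-Hochberg adjustment. Control levels were log2 Cy3 signals centred on the median of those probes. The limma steps were tested on simulated data. Whether the samples were separate cultures is not stated, so p-values measure the spread between these arrays only, and the number of arrays limits precision. The labels give no replicate number, and the cell line served as a block only in the alternative fit.

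All 37 genes are named. Of the wider mitotic list and the regulators, genes at least 2-fold changed on an array or between the miRNAs, or called by limma between them, were named where reported, at most 8 per list by largest mean difference between the miRNAs, with CDK1 in any case; MYBL2 was added after its values were seen. Some listed genes, and the list of leukocyte markers, are not reported here. Members and lists were chosen with earlier results of these data known. Sequences and gene starts came from RefSeq tables of GRCh38.p14, and genes carry the design's names. Target sites in messages were not analysed here. Alternatives were normexp with an offset of 50, no background subtraction, mean spot signals, loess with a span of 0.3, total signal, the scanner software's ratio, averaged probes, other filters on dim probes including a Cy3 minimum of 200, a 1.5-fold threshold, the block, and leaving out each array.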

Additional observations from a re-analysis of the deposited data

How the results depend on the processing

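The absence of 2-fold lower mitotic genes and the median shift depended on the dye normalisation. Without background subtraction the medians were 0.37 (FaDu miR-489), 0.37 (FaDu miR-504) and 0.56 (HSC3 miR-489). For FaDu miR-489 the median was 0.00447 with loess, 0.00872 with normexp and loess, 0.0358 with total signal normalisation and 0.0817 with the scanner software's ratio and the identical deposited table. For FaDu miR-504 these were 0.0316, 0.0305, 0.0537 and 0.0648, for HSC3 miR-489 0.19, 0.18, 0.24 and 0.23, and for HSC3 miR-504 -0.0103, -0.00882, -0.0707 and 0.00966. Total signal normalisation moved the medians of all genes to -0.24 and -0.18 in FaDu and -0.21 and -0.20 in HSC3. Under each of these 5 settings, 1 gene was 2-fold lower for FaDu miR-489 (CENPF) and 1 for HSC3 miR-504 (ECT2). At 1.5-fold 2, 2, 0 and 3 of the 37 genes were lower on the 4 arrays, against 20.3%, 15.9%, 19.6% and 15.5% of all genes, and 7, 5, 10 and 2 higher, against 12.9%, 11%, 12.2% and 10.2%. Between the miRNAs 1 gene was then lower in FaDu (8.16% of all genes) and 2 higher in HSC3 (3.62%). ANLN in FaDu was not 2-fold (count 0) with normexp, no background subtraction, loess, normexp and loess, or total signal normalisation.

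Genes called lower by limma after miR-489 numbered 7 with loess, with normexp and loess and with the scanner software's ratio, 2 without the dim filter, and 1 to 3 with 1 array left out. Those called higher after miR-489 numbered 13 to 18 with 1 array left out. After miR-504 there were 9 lower with loess, 11 with normexp and loess, 7 with the scanner software's ratio and 1 to 4 with 1 array left out. The genes called higher after miR-504 numbered 9 with loess, 9 without the dim filter and 2 to 15 with 1 array left out. The ANLN call between the miRNAs was lost without the dim filter (0 genes) and with any array left out (0 to 0). A lone array is then assumed to vary like the others. With the cell line as replicate block 3 genes were called lower and 19 higher after miR-489 (FOXM1 and BIRC5 lost), 4 and 14 after miR-504, and 578 probes instead of 230 differed between the miRNAs, ANLN again the 1 of the 37. The control median of 0.24 was 0.36 on the miR-489 arrays alone and 0.13 on the miR-504 arrays alone. The cause of these changes was not tested. Of the recomputed values 293 did not change their call or moved within the spot spread. Another 61 were marked as moved, 25 as stronger and 21 as weaker.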
